A study of Homo sapiens with 8 samples.

Results

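The Siglec receptors described here were CD33, SIGLEC1, SIGLEC5, SIGLEC6, SIGLEC7, SIGLEC9 and SIGLEC10, 7 of the 37526 gene names counted in all 8 RNA-seq libraries. They were chosen by symbol, with earlier values from these libraries known, so their own levels and differences are given as descriptions, with no P printed for any of them. The cells were NB4, a line from acute promyelocytic leukemia that carries the PML/RARα fusion. Scramble cells held a stably transduced control shRNA vector, called an empty vector in the labels and a scrambled shRNA in the methods, and shKDM3B cells held the same puromycin-selected lentiviral vector with an shRNA against KDM3B, a histone demethylase for H3K9me1 and H3K9me2. Scramble+ATRA and shKDM3B+ATRA cells also received all-trans retinoic acid (ATRA), at 1 µM for 24 or 48 h as the labels give it, and the methods write 1 mM. Each of the 4 groups had 2 libraries. Nothing stated which shRNA sequence was used, at which of the 2 times a library was taken, or that the 2 libraries of a group came from separate cultures, so their spread may be technical. With 2 libraries against 2, a two-sided exact permutation test could not go below p = 0.333.

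Siglecs are cell surface lectins that bind sialic acid on glycans of the same or of neighbouring cells. Most of them carry inhibitory motifs in the cytoplasmic tail, which are phosphorylated by Src family kinases and then recruit the phosphatases SHP-1 and SHP-2, while a few members pair instead with the activating adaptor DAP12. CD33, also called Siglec-3, is found on myeloid cells and is the target of antibody drugs for myeloid leukemia.

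CD33, SIGLEC5, SIGLEC6, SIGLEC7, SIGLEC9 and SIGLEC10 lie in a cluster on chromosome 19, and SIGLEC1, the gene of the macrophage receptor sialoadhesin, lies on chromosome 20. In GENCODE release 44 on hg38, the build of the counts, SIGLEC9 spans chr19:51124906-51136651 and SIGLEC7 spans chr19:51142299-51153526, both on the plus strand. CD33 spans chr19:51225064-51243860 on the plus strand. SIGLEC10 (chr19:51410020-51417803), SIGLEC6 (chr19:51517819-51531856) and SIGLEC5 (chr19:51610960-51645545) lie on the minus strand, the last as the joint span of 2 entries of that name. SIGLEC1 spans chr20:3686970-3712600, also on the minus strand.

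The 250 bases before the outermost annotated 5′ end are shown for 5 receptors, because CD33, SIGLEC6 and SIGLEC10 differed in how they moved in the knockdown cells, and because SIGLEC7 and SIGLEC9 were counted at very different levels. Each sequence is written 5′ to 3′ on the gene's own strand, from hg38. Capitals mark GAGGAA or its reverse complement TTCCTC, the core that the myeloid factor PU.1 prefers, and AGGTCA or its reverse complement TGACCT, a half-site of retinoic acid receptors. These motifs were chosen after the values were seen.
CD33, chr19:51224814-51225063, plus strand: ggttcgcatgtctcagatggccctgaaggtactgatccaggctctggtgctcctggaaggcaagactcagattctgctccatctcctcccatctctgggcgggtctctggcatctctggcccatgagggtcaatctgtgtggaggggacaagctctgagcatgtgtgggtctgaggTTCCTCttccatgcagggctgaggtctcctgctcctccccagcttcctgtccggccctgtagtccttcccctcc
SIGLEC6, chr19:51531857-51532106, minus strand: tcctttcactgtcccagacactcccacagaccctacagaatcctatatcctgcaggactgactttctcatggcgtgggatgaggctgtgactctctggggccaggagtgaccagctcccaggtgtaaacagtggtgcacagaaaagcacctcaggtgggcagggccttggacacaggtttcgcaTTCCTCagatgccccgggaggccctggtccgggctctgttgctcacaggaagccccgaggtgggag
SIGLEC10, chr19:51417804-51418053, minus strand: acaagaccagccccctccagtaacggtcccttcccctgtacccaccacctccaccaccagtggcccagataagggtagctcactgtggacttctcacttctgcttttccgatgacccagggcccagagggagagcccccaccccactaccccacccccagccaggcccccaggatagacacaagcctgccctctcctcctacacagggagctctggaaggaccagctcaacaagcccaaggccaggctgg
SIGLEC7, chr19:51142049-51142298, plus strand: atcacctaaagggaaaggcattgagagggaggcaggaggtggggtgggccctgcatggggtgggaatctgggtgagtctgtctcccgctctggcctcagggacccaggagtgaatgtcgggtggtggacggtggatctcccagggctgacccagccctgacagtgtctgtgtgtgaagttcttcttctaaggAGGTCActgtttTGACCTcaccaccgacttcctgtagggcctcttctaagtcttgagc
SIGLEC9, chr19:51124656-51124905, plus strand: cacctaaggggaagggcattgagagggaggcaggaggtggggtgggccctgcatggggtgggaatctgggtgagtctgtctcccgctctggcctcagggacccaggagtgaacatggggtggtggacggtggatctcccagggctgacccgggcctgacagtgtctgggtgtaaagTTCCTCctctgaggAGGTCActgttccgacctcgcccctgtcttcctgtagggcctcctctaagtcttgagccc

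The GAGGAA motif stood 74 bases before the start in CD33, 66 bases before it in SIGLEC6 and 74 bases before it in SIGLEC9, each time as TTCCTC. The retinoic acid receptor half-site occurred 58 and 46 bases before the start in SIGLEC7, in opposite orientations, and 60 bases before it in SIGLEC9. Neither set of letters was found in the SIGLEC10 window. Of 20037 promoter windows of the same length, 23.2% held the first motif on either strand and 11.7% held the second. The windows of SIGLEC7 and SIGLEC9 were 90.9% identical in a global alignment, against 44.8% to 56.7% for every other pair among the 7 receptors.

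Depth and counting differed among the libraries. Reads counted on genes ranged from 9708739 to 33017787 a library. Of the uniquely aligned counts, 8.49% to 9.62% fell outside genes in the 4 untreated libraries and 9.36% in scramble+ATRA replicate 1, but 50.02% did in scramble+ATRA replicate 2 and 51.45% and 51.05% in the 2 shKDM3B+ATRA libraries. Among names without a dot, 189 had at least 20 counts in each of these 3 libraries and at most 1 in each of the other 5, and none showed the reverse. None of the 7 receptors was among the 189. The scramble+ATRA replicates thus stood on different sides, and the receptors' values that use them are also given without one or the other. In shKDM3B cells both ATRA libraries stood on one side and both untreated libraries on the other. ATRA and this counting difference therefore cannot be told apart there, and leaving out a library does not separate them. KDM3B itself was at 186 and 189 CPM (counts scaled to a common library total) in scramble, 75.1 and 89.1 in shKDM3B, 194 and 120 in scramble+ATRA, and 52.8 and 57.1 in shKDM3B+ATRA, so both knockdown groups lay below both of their controls.

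CPM values here were scaled by edgeR's TMM factors over the shared names. To compare levels between genes they were divided by the exon length in kb. In scramble cells CD33 had the highest level of the 7, at 10.5 and 12.5 CPM per kb, followed by SIGLEC10 at 6.45 and 6.96, SIGLEC6 at 1.47 and 1.62, and SIGLEC7 at 0.512 and 0.827 CPM per kb. These 4 did not overlap with each other in the scramble libraries. SIGLEC5, SIGLEC9 and SIGLEC1 lay at or below 0.0898 CPM per kb there, and SIGLEC5 overlapped with SIGLEC9. In shKDM3B cells the levels of SIGLEC7 (0.280 and 0.346 CPM per kb) and SIGLEC6 (0.272 and 0.282 CPM per kb) overlapped, and in scramble+ATRA cells those of CD33 (14.6 to 18.2 CPM per kb) and SIGLEC10 (10.4 to 16.0 CPM per kb) overlapped. Within each scramble+ATRA library CD33 was above SIGLEC10, at 18.2 against 16.0 in replicate 1 and 14.6 against 10.4 CPM per kb in replicate 2. In shKDM3B+ATRA cells CD33 (15.4 to 16.6 CPM per kb) was above SIGLEC10 (7.95 and 7.96 CPM per kb), and SIGLEC7 (0.623 to 1.13 CPM per kb) was above SIGLEC6 (0.0248 to 0.397 CPM per kb).

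**Figure D1:**
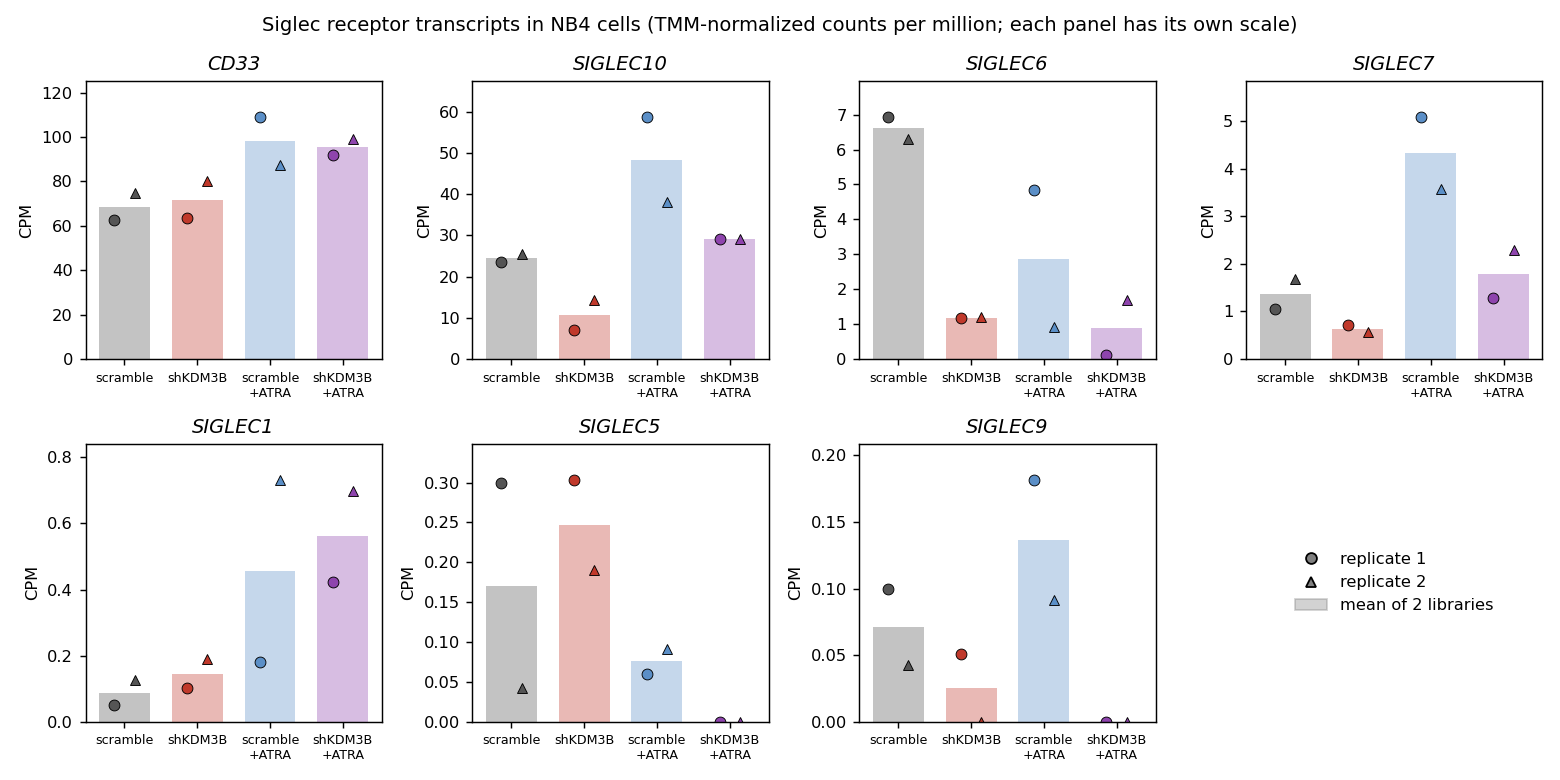
CPM of the 7 Siglec receptors (y axes, each on its own scale from 0) in the 4 groups (x axes), with the 2 replicates as points and their mean as a bar. CD33 was alike in scramble and shKDM3B cells, SIGLEC6, SIGLEC7 and SIGLEC10 were lower in both shKDM3B libraries than in both scramble libraries, and SIGLEC1, SIGLEC5 and SIGLEC9 stayed below 1 CPM.

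CD33 was counted at 62.5 and 74.98 CPM in scramble cells and at 63.6 and 80.1 CPM in shKDM3B cells. The groups overlapped, with a log2 fold change of 0.05 ± 0.17 (SE, n = 2 against 2), where a positive value is higher in shKDM3B cells. Leaving out each library in turn kept this value between -0.10 and 0.18. CD33 was the only one of the 4 receptors that passed the count filter in this comparison without a lower level in both shKDM3B libraries.

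SIGLEC6, a receptor described on placental trophoblast, mast cells and some B cells, was at 6.92 and 6.29 CPM in scramble and at 1.16 and 1.21 CPM in shKDM3B cells. Both shKDM3B libraries were far below both scramble libraries, and the spread within each group was small. The log2 fold change was -2.49 ± 0.31, a 5.62-fold lower level, and it stayed between -2.56 and -2.41 without any one library.

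SIGLEC10, an inhibitory receptor that binds sialylated CD24, was at 23.7 and 25.5 CPM in scramble and at 7.07 and 14.3 CPM in shKDM3B cells. The 2 shKDM3B libraries differed by more than the scramble libraries did, and both were lower. The log2 fold change was -1.22 ± 0.30, or 2.32-fold lower, and it was -0.83 without shKDM3B replicate 1 and -1.79 without replicate 2. Of the exon bases of SIGLEC10, 22.6% are overlapped by genes on the opposite strand, SIGLEC10-AS1 and SIGLEC10-AS2. No strand setting was stated, so reads of the 2 strands cannot be told apart there. Whether the 3 libraries with most counts outside genes were counted with another strand setting than the other 5 was not tested, and such a difference would change what the values with ATRA of SIGLEC10, SIGLEC7 and SIGLEC6 include, the last with 9.93% of its exon bases overlapped by an opposite-strand gene.

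SIGLEC7, an inhibitory receptor of natural killer cells and monocytes, was at 1.05 and 1.69 CPM in scramble and at 0.707 and 0.571 CPM in shKDM3B cells, from 14 to 40 counts a library. The groups did not overlap, and the log2 fold change was -1.13 ± 0.46, or 2.18-fold lower. It ranged from -1.41 to -0.74 without any one library, and its call below was lost without scramble replicate 2 or either shKDM3B library. An opposite-strand gene overlaps 27.5% of the SIGLEC7 exon bases.

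The study called genes with DESeq2 at an unadjusted P under 0.05 and a fold change of at least 1.5, and the same thresholds were used here with edgeR's quasi-likelihood test. By this rule 3 of the 4 receptors tested, SIGLEC6, SIGLEC7 and SIGLEC10, were called lower in shKDM3B cells, beside 3.53% of all 13855 genes tested called lower and 7.01% called in either direction. This contrast was among the values known when the receptors were chosen, so nothing is read from the count. With the DESeq2 test, or with all 8 libraries in one fit, 2 receptors were called and SIGLEC7 was not, beside 5.72% and 5.01% of all genes. None of the 4 passed after Benjamini-Hochberg adjustment, where 3 genes in all did, or 0.0217%.

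SIGLEC1, SIGLEC5 and SIGLEC9 did not pass the count filter in any comparison of 2 groups. SIGLEC1 had 1 and 3 counts in scramble, 2 and 6 in shKDM3B, 3 and 8 in scramble+ATRA, and 4 and 7 in shKDM3B+ATRA. By CPM both ATRA groups were above their untreated groups, with the highest library at 0.731 CPM. SIGLEC5, a receptor of neutrophils and monocytes, had 6 and 1 counts in scramble, 6 and 6 in shKDM3B, 1 and 1 in scramble+ATRA, and 0 in both shKDM3B+ATRA libraries. Of the stretches of 75 bases in SIGLEC5 transcripts, 19.5% also occur in its paired receptor SIGLEC14, so reads could be split or lost between the 2 genes. SIGLEC9, a receptor of neutrophils and monocytes, had at most 3 counts in any library and 0 in both shKDM3B+ATRA libraries. A count of 0 there allows up to 3 counts, or 0.318 and 0.300 CPM in the 2 libraries. By summed counts scaled for depth, the exact 95% interval of the ratio, which covers counting error only, was 0 to 0.950 for SIGLEC5 on ATRA in shKDM3B cells. For SIGLEC1 on ATRA it was 1.30 to 18.9 in scramble and 1.33 to 10.4 in shKDM3B cells. In every other comparison of 2 groups the intervals of these 3 receptors held 1. These intervals describe the depth and are no test between the groups. Without the count filter SIGLEC1 and SIGLEC5 were called on ATRA in shKDM3B cells, which made 4 of 7 receptors beside 33.1% of all genes. SIGLEC7, whose promoter window was 90.9% identical to that of SIGLEC9, had 12 to 84 counts a library.

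ATRA drives NB4 cells towards granulocytes. In scramble cells CD33 was at 109 and 87.2 CPM with ATRA, above both untreated libraries, and the log2 fold change was 0.56 ± 0.22. That is 1.48-fold and under the 1.5-fold limit of a call. Without scramble+ATRA replicate 1 it was 0.39, and without replicate 2 it was 0.69. In shKDM3B cells CD33 was at 92.0 and 99.2 CPM with ATRA, again above both untreated libraries, with a log2 fold change of 0.48 ± 0.14.

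SIGLEC10 was at 58.7 and 38.1 CPM in scramble+ATRA cells and at 29.2 CPM in both shKDM3B+ATRA libraries. Each ATRA library was above both of its untreated counterparts. The log2 fold change on ATRA was 1.03 ± 0.26 in scramble cells, 0.68 without scramble+ATRA replicate 1 and 1.28 without replicate 2. In shKDM3B cells it was 1.51 ± 0.27, a 2.84-fold higher level. There, as for every gene in that comparison, ATRA and the counting difference cannot be told apart.

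SIGLEC7 was at 5.08 and 3.57 CPM in scramble+ATRA and at 1.27 and 2.30 CPM in shKDM3B+ATRA cells, also above the untreated libraries in both backgrounds. The log2 fold change on ATRA was 1.71 ± 0.46 in scramble cells, or 3.26-fold, with 1.42 and 1.91 without scramble+ATRA replicates 1 and 2. It was 1.56 ± 0.46 in shKDM3B cells, or 2.96-fold.

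SIGLEC6 went the other way in scramble cells, at 4.84 and 0.914 CPM with ATRA, and both values were below the untreated ones. The 2 replicates differed widely. The log2 fold change of -1.12 ± 0.66 became -2.80 without scramble+ATRA replicate 1, the library with few counts outside genes, and -0.42 without replicate 2. The shKDM3B+ATRA libraries held 1 and 17 counts of SIGLEC6, or 0.106 and 1.70 CPM, on either side of the untreated shKDM3B level. Its log2 fold change there was -0.30 ± 0.72, and it was -3.35 without replicate 2 and 0.57 without replicate 1 of shKDM3B+ATRA. The part of the counting difference in the SIGLEC6 values was not tested.

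By the same rule 2 of the 4 receptors tested, SIGLEC7 and SIGLEC10, were called higher on ATRA in scramble cells, beside 15% of 12429 genes called higher and 25.9% called in either direction. The same 2 were called higher in shKDM3B cells, beside 24% of 12756 genes called higher and 42.2% called in either direction. After adjustment SIGLEC10 was still called in scramble cells, beside 12.9% of all genes, and SIGLEC7 and SIGLEC10 were in shKDM3B cells, beside 40.2%. Nothing is read from these counts, since the rule used these contrasts. Without scramble+ATRA replicate 1 SIGLEC6 was also called in scramble cells, as lower, which made 3 of 4 receptors beside 38.4% of all genes. Without replicate 2 CD33 was called instead, as higher, which made 3 of 4 beside 24.7%. Without scramble replicate 1 none was called, beside 11.9% of all genes, and without scramble replicate 2 only SIGLEC7 was, beside 11.1%. In shKDM3B cells the call of SIGLEC7 was lost without shKDM3B+ATRA replicate 2 and with the DESeq2 test. SIGLEC6 was called there, at -3.35, without shKDM3B+ATRA replicate 2, beside 38.3% of all genes, and CD33 at 0.62 without shKDM3B replicate 2, beside 39.8%.

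Between the ATRA-treated groups, SIGLEC7 and SIGLEC10 were lower in both shKDM3B+ATRA libraries than in both scramble+ATRA libraries, while CD33 and SIGLEC6 overlapped. The log2 fold changes were -0.05 ± 0.17 for CD33, -0.74 ± 0.27 for SIGLEC10, -1.28 ± 0.50 for SIGLEC7 and -1.677 ± 1.498 for SIGLEC6. None of these 4 was called, beside 4.37% of 14281 genes called lower and 6.79% called in either direction. SIGLEC6 rested on replicates that differed within both groups. Its log2 fold change was 0.01 without scramble+ATRA replicate 1 and -2.40 without replicate 2, and it was -0.77 without shKDM3B+ATRA replicate 1 and -4.66 without replicate 2. SIGLEC10 was at -0.39 and -1.03 without scramble+ATRA replicates 1 and 2, and SIGLEC7 at -0.99 and -1.52 without the same 2 libraries. CD33 stayed between -0.21 and 0.13 without any one library. Without scramble+ATRA replicate 1, 1 receptor was called beside 17% of all genes, and without replicate 2, 3 were called beside 36.4%.

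The ATRA response of shKDM3B cells minus that of scramble cells, fitted as an interaction over the 8 libraries, was -0.10 ± 0.25 for CD33, 0.47 ± 0.45 for SIGLEC10, -0.18 ± 0.70 for SIGLEC7, 0.80 ± 1.40 for SIGLEC6 and -0.32 ± 1.38 for SIGLEC1 on the log2 scale. None of these 5 was called, beside 3.99% of 13528 genes. Without scramble+ATRA replicate 1, SIGLEC6 was at 2.49, and without shKDM3B replicate 2, SIGLEC10 was at 1.08. Each was then called, beside 5.65% and 2.58% of all genes. SIGLEC6 turned to -2.24 without shKDM3B+ATRA replicate 2 and was then not called. Over the libraries left out in turn CD33 ranged from -0.26 to 0.09, SIGLEC7 from -0.68 to 0.22 and SIGLEC1 from -1.09 to 0.89, so their signs turned too, while SIGLEC10 stayed between 0.09 and 1.08.

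**Figure D2:**
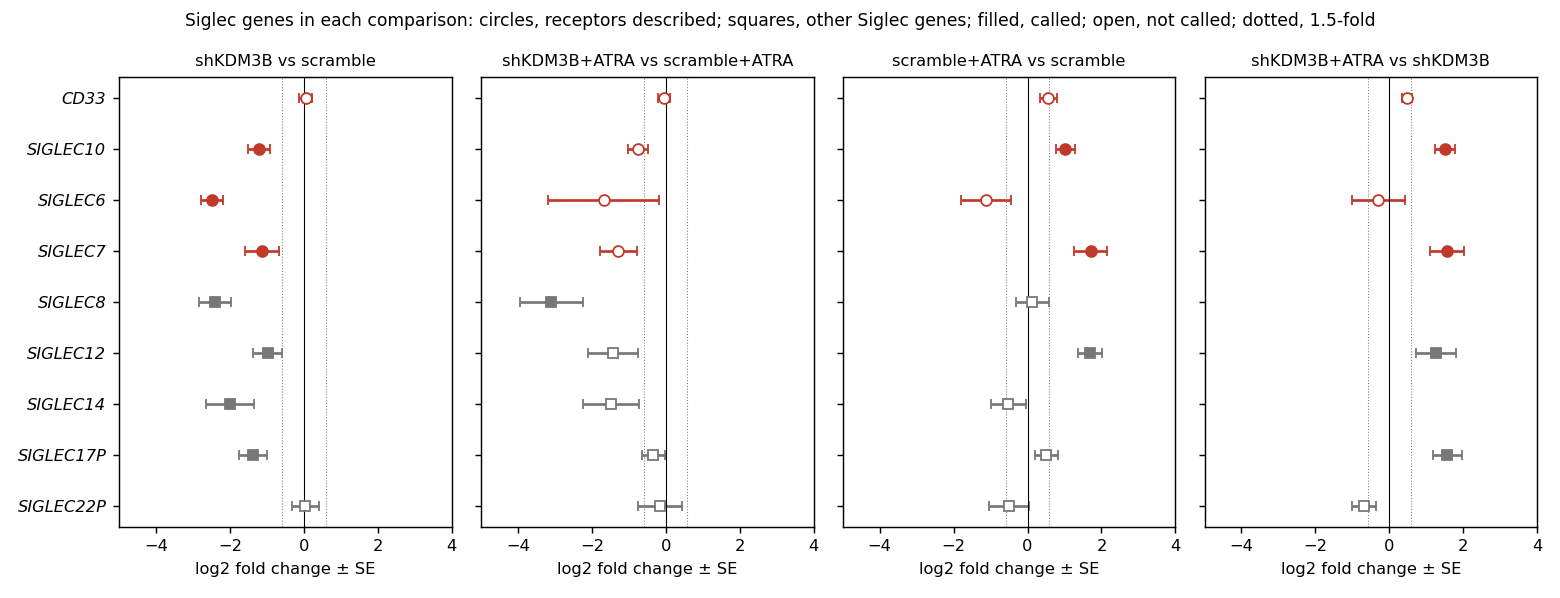
Log2 fold change with its standard error (x axis) of 4 Siglec receptors (circles) and 5 other Siglec genes (squares) in the 4 comparisons of 2 groups, each with 2 libraries a group. Filled symbols mark genes called at unadjusted P under 0.05 and a fold change of at least 1.5, and a gene is absent where it did not pass the count filter. CD33 stayed near 0 in both knockdown comparisons, and SIGLEC7, SIGLEC10 and SIGLEC12 were called higher in both ATRA comparisons.

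The files also counted other genes of the family, for which a list of 21 symbols (every other SIGLEC name, CD22 and MAG) was drawn up. In shKDM3B against scramble cells 5 of the 21 passed the count filter. All 4 that were called were lower, beside 3.53% of all genes called lower. The median log2 fold change of the 5 was -1.38, beside 0.000219 over all genes tested. SIGLEC8, the inhibitory receptor of eosinophils and mast cells, was at 2.14 and 2.91 CPM in scramble and 0.404 and 0.540 CPM in shKDM3B cells. Its log2 fold change was -2.41 ± 0.42, with an edgeR adjusted p of 0.111. SIGLEC14, the DAP12-pairing receptor, was at 1.49 and 1.94 CPM against 0.101 and 0.698 CPM, with a log2 fold change of -1.9999 ± 0.644 (edgeR adjusted p = 0.322). SIGLEC17P, a pseudogene that still gives a transcript, had a log2 fold change of -1.38 ± 0.38 (edgeR adjusted p = 0.224). SIGLEC12, whose human protein has lost sialic acid binding, was at -0.98 ± 0.39 (edgeR adjusted p = 0.444). None of these passed after adjustment. SIGLEC22P, at 3.39 and 6.29 CPM in scramble and 3.84 and 6.16 CPM in shKDM3B cells, was at 0.03 ± 0.37 and between -0.33 and 0.54 without any one library, but 68.8% of its 75-base stretches occur in a second annotated gene. Without single libraries SIGLEC8 stayed between -2.62 and -2.17 and SIGLEC14 between -4.003 and -1.34. SIGLEC17P was at -0.96 without shKDM3B replicate 1 and -2.07 without replicate 2, and was called each time, while the call of SIGLEC12 was lost without scramble replicate 2 (-0.65) or shKDM3B replicate 1 (-0.57).

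**Figure D3:**
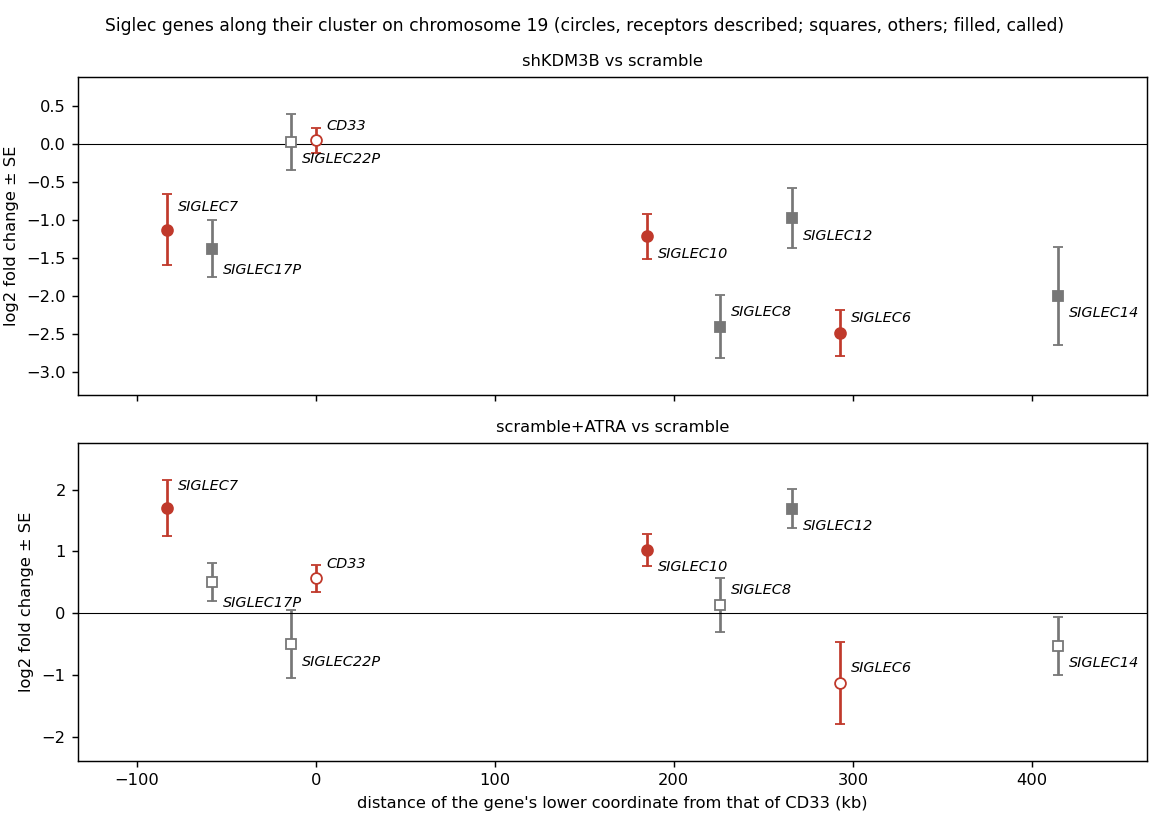
Log2 fold change with its standard error (y axes) against the distance in kb from the lower coordinate of CD33 (x axis) for Siglec genes of the chromosome 19 cluster that passed the count filter, in shKDM3B against scramble cells (top) and in scramble+ATRA against scramble cells (bottom), which share the scramble libraries. In the top panel CD33 and SIGLEC22P, at 0 and -13.95 kb, lie near a log2 fold change of 0 and the genes on both sides of them lie lower.

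Along the cluster, CD33 and SIGLEC22P, both near 0, stood between genes that were lower in shKDM3B cells. The lower coordinates of SIGLEC7 and SIGLEC17P lay at -82.8 and -57.7 kb from that of CD33, and those of the minus-strand genes SIGLEC10, SIGLEC8, SIGLEC12, SIGLEC6 and SIGLEC14, which are their 3′ ends, lay at 185, 226, 266, 293 and 414 kb. SIGLECL1, at 21.3 kb, had only 2 to 7 counts a library. Neighbouring genes of the cluster are not independent of each other, and no test was made of the pattern along it.

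With ATRA, SIGLEC8 was at 2.18 and 3.20 CPM in scramble+ATRA and 0.106 and 0.4997 CPM in shKDM3B+ATRA cells. It was the one gene of the 6 tested from this list that was called in this comparison, beside 4.37% of all genes called lower, at -3.10 ± 0.85. It passed the count filter through the scramble+ATRA libraries alone, and a gene admitted that way could be called only as lower, so no p is given. Of the 4 genes that did not enter through these libraries alone none was called. The call of SIGLEC8, with every other call between the ATRA groups from the lists here, was lost without shKDM3B+ATRA replicate 1. SIGLEC12 was at 20.4 and 19.1 CPM in scramble+ATRA against 3.39 and 11.4 CPM in shKDM3B+ATRA cells, a log2 fold change of -1.42 ± 0.68 (edgeR adjusted p = 0.565). Leaving out 1 library in turn, SIGLEC8 ranged from -4.55 to -2.40 and SIGLEC12 from -2.55 to -0.79, with SIGLEC12 called when any 1 library other than shKDM3B+ATRA replicate 1 was left out. SIGLEC14 was at -1.49 ± 0.75, SIGLEC17P at -0.34 ± 0.31, SIGLEC16 at -0.30 ± 0.36 and SIGLEC22P at -0.15 ± 0.59, none of them called. SIGLEC14 was at -2.41 without shKDM3B+ATRA replicate 2 and -0.93 without replicate 1, and SIGLEC22P turned to 0.70 without scramble+ATRA replicate 1 and was at -0.68 without replicate 2.

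On ATRA, SIGLEC12 rose 3.23-fold in scramble cells, a log2 fold change of 1.69 ± 0.32 (edgeR adjusted p = 0.0141), and was at 1.26 ± 0.53 in shKDM3B cells (edgeR adjusted p = 0.0751), where it was 0.13 without shKDM3B+ATRA replicate 2. SIGLEC16, an activating receptor gene that many people carry only as a pseudogene, had 0 counts in all 4 untreated libraries and 62, 39, 33 and 25 counts in the ATRA libraries. Against a floor of 3 counts a library it was at least 26.8-fold higher in scramble cells and at least 25.5-fold higher in shKDM3B cells. It passed the count filter through the ATRA libraries alone, so no p is given, and the same holds for CD22 in scramble cells. The untreated and ATRA libraries listed partly different sets of names, 56470 and 56609. Among 11085 shared names without a dot that had at least 20 counts in every library of one treatment, 12 had at most 1 count in every untreated library and 5 in every ATRA library, and SIGLEC16 is one of the 12. SIGLEC11, which shares 22.3% of its 75-base stretches with SIGLEC16, had 0 counts untreated and 4 to 9 with ATRA, a level at least 4.51-fold higher in scramble and at least 3.52-fold higher in shKDM3B cells. CD22, the B cell Siglec, had 1 and 0 counts in scramble and 23 and 8 in scramble+ATRA, a ratio of 49.4 by summed counts (exact 95% interval 8.23 to 2012, counting error only). Its fitted log2 fold change of 5.22 ranged from 4.24 to 7.21 over the libraries left out in turn. Without scramble+ATRA replicate 1 CD22 did not pass the count filter. In shKDM3B cells it had 1 and 1 counts untreated and 2 and 3 with ATRA. SIGLEC17P rose in shKDM3B cells, by a log2 fold change of 1.56 ± 0.39 (edgeR adjusted p = 0.00845), and was at 0.51 ± 0.31 in scramble cells (edgeR adjusted p = 0.345). The difference between these 2 responses was 1.05 ± 0.56 (edgeR adjusted p = 1.00). Leaving out 1 library in turn, the rise of SIGLEC17P in shKDM3B cells ranged from 1.09 to 2.25 and the difference from 0.62 to 1.78, and of these the difference was called only when shKDM3B replicate 2 was left out. SIGLEC8 was at 0.13 ± 0.44, SIGLEC14 at -0.52 ± 0.47 and SIGLEC22P at -0.50 ± 0.55 in scramble cells, none of them called, though SIGLEC22P was at -1.36 and called without scramble+ATRA replicate 1. In all, 3 of the 7 genes of this list tested were called on ATRA in scramble cells, beside 25.9% of all genes, and 3 of 4 in shKDM3B cells, beside 42.2%. Of these calls 2 in scramble cells, SIGLEC16 and CD22, and 1 in shKDM3B cells, SIGLEC16, were of genes that passed the filter through the ATRA libraries alone, so nothing is read from the counts.

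**Figure D4:**
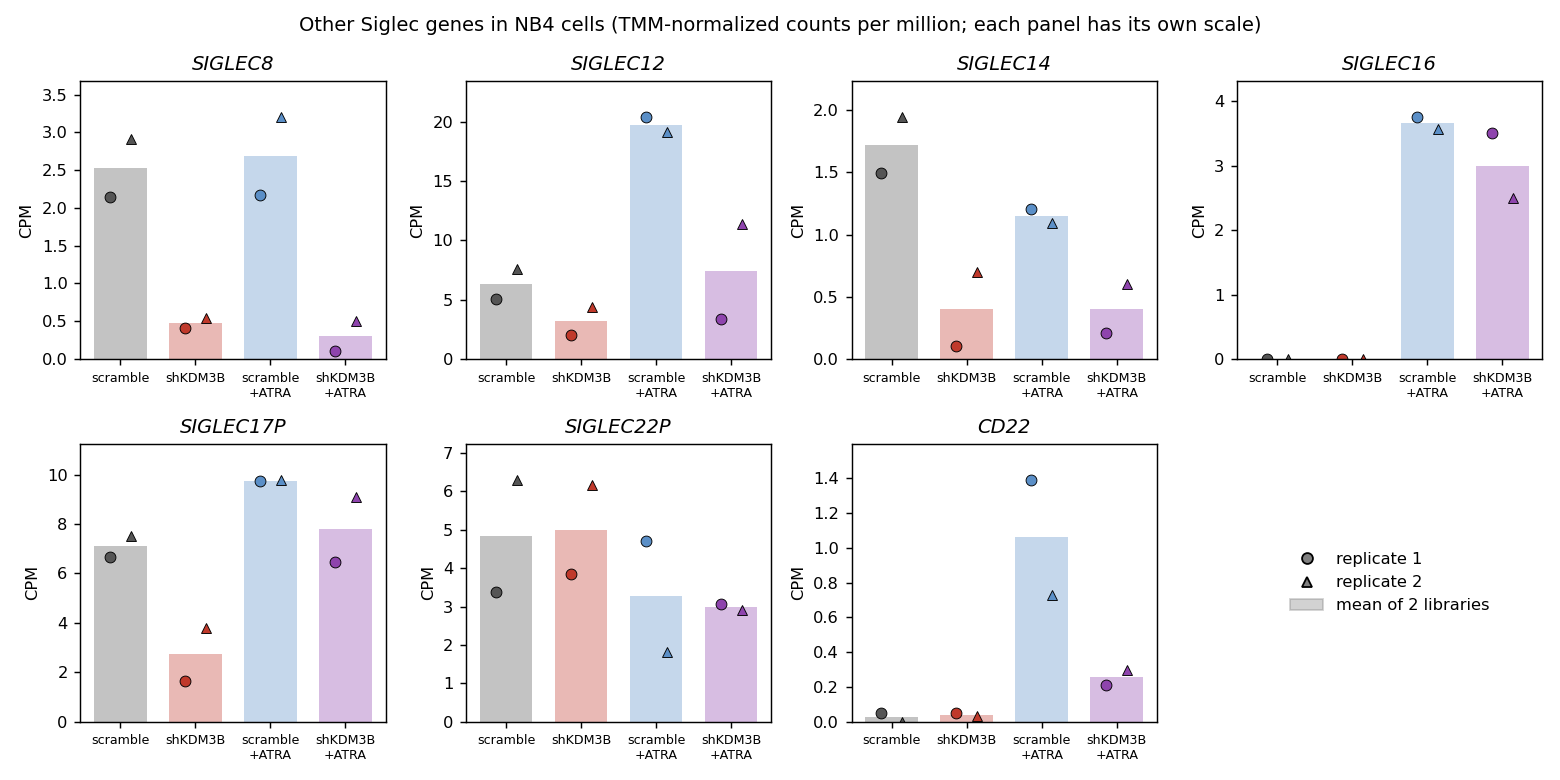
CPM of 7 other Siglec genes (y axes, each on its own scale from 0) in the 4 groups (x axes), with the 2 replicates as points and their mean as a bar. SIGLEC16 was at 0 in all 4 untreated libraries and at 2.50 to 3.75 CPM with ATRA, and SIGLEC8 was lower in both knockdown groups than in both of their controls.

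Signalling partners of the receptors were described by a list of 12 genes. In shKDM3B against scramble cells 10 of them passed the count filter, 2 were called lower and none higher, beside 3.53% of all genes called lower, and the median log2 fold change was -0.02. FGR, a Src family kinase of myeloid cells, was at 3.24 and 1.82 CPM in scramble and 0.455 and 0.476 CPM in shKDM3B cells, a log2 fold change of -2.44 ± 0.47 (edgeR adjusted p = 0.129). TYROBP, which encodes DAP12, was at 8.97 and 7.77 against 3.94 and 5.27 CPM, a log2 fold change of -0.87 ± 0.27 (edgeR adjusted p = 0.284), not called without shKDM3B replicate 1. With ATRA the same pair was called lower in shKDM3B cells, FGR at -1.13 ± 0.21 and TYROBP at -1.03 ± 0.21, each with an edgeR adjusted p of 0.502, beside 4.37% of all genes called lower. The list's median there was -0.27, beside 0.03 over all genes.

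On ATRA in scramble cells 11 partners were tested, and SOCS3 passed the count filter through the ATRA libraries alone. Of the other 10, 5 were called higher and none lower, beside 15% of all genes called higher, with a median log2 fold change of 0.92, beside 0.02 over all genes. FGR rose from 1.82 and 3.24 CPM to 546 and 433 CPM, a log2 fold change of 7.65 ± 0.39 (edgeR adjusted p = 0.000135). SOCS3, a feedback inhibitor that can bind Siglec tails, was called higher at 3.07 ± 0.49, and TYROBP rose by 2.52 ± 0.24 (edgeR adjusted p = 0.00109). In shKDM3B cells, where FGR and SOCS3 passed through the ATRA libraries alone, 4 of the other 9 were called higher and 1 lower, beside 24% of all genes called higher and 42.2% in either direction, with a median of 0.77. FGR was called there at 8.96 ± 0.23 and SOCS3 at 3.48 ± 0.36, and TYROBP rose by 2.37 ± 0.23 (edgeR adjusted p = 2.88e-05). For SOCS3 in both backgrounds and FGR in shKDM3B cells no p is given, since the filter fixed their direction. The FGR response differed between the 2 backgrounds by 1.29 ± 0.45, which was called on the unadjusted P (edgeR adjusted p = 1.00) but not without scramble replicate 1, either shKDM3B library or shKDM3B+ATRA replicate 2. This difference rests on an untreated shKDM3B level of only 24 counts over both libraries. With ATRA the mean of FGR was 490 CPM in scramble and 225 CPM in shKDM3B cells.

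Supply, transfer and removal of sialic acid, the ligand side, were described by 32 genes. In shKDM3B against scramble cells 19 were tested, 2 were called higher and none lower, beside 7.01% of all genes called in either direction, with a median log2 fold change of 0.07. NEU3, a sialidase of the plasma membrane, was at 65.8 and 62.9 CPM in scramble and 109 and 92.9 CPM in shKDM3B cells, 0.64 ± 0.16 (edgeR adjusted p = 0.207). ST8SIA4, a polysialyltransferase, was at 0.59 ± 0.18 (edgeR adjusted p = 0.298). NEU3 lost its call without shKDM3B replicate 1, and ST8SIA4 without scramble replicate 1 or shKDM3B replicate 2. With ATRA NEU3 was called higher again in shKDM3B cells, at 0.72 ± 0.24 (edgeR adjusted p = 0.508), the only one of 19 called, beside 6.79% of all genes, and at 0.48 it was not called without scramble+ATRA replicate 2. On ATRA in scramble cells 2 of 18 were called lower and none higher, beside 25.9% of all genes called, ST3GAL6 at -0.96 ± 0.26 (edgeR adjusted p = 0.0509) and ST3GAL4 at -0.72 ± 0.23 (edgeR adjusted p = 0.0847), both of which add sialic acid to galactose. In shKDM3B cells 3 of 18 were called higher and 4 lower on ATRA, or 38.9%, leaving out SIAE, and a share near the 42.2% of all genes called there is no result about these genes. ST3GAL1 fell by 1.37 ± 0.18 on the log2 scale (edgeR adjusted p = 0.000243). ST6GAL1, which makes the kind of sialic acid link that CD22 binds, fell by 0.84 ± 0.21 (edgeR adjusted p = 0.00833). SIAE, a sialic acid esterase, was also called there through the ATRA libraries alone, but its counts were 273, 279 and 267 in the 3 libraries with most counts outside genes, 0 in scramble+ATRA replicate 1 and at most 1 in the untreated libraries. It is one of the 189 names above, and no fold is given. NEU1, the lysosomal sialidase that most cells need, was listed at 0 in all 8 libraries.

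Of 15 other inhibitory receptors of white blood cells, 9 were tested in shKDM3B against scramble cells, and 2 were called lower and none higher, beside 3.53% of all genes called lower, with a median log2 fold change of -0.17. CLEC12A, a lectin of myeloid cells, was at -1.23 ± 0.50 (edgeR adjusted p = 0.446). It lost its call without scramble replicate 2 (-0.71) or shKDM3B replicate 2 (-0.72) and was at -1.89 without shKDM3B replicate 1. MILR1, a receptor of mast cells and other myeloid cells, was at -0.89 ± 0.26 (edgeR adjusted p = 0.259). Between the ATRA groups 3 of 9 were called lower in shKDM3B cells and none higher, beside 4.37% of all genes called lower, with a median of -0.74. These were CD300LF at -1.42 ± 0.25, CD300A at -1.29 ± 0.28 and PILRA at -0.74 ± 0.24, the first 2 with an edgeR adjusted p of 0.502 and PILRA with 0.508. On ATRA in scramble cells 6 of 9 were called higher and 1 lower, leaving out LILRB2, beside 15% of all genes called higher and 25.9% in either direction, with a median of 1.25. LILRB2 had 1 count in both untreated libraries together and 16 and 10 with ATRA, through which alone it passed the count filter, so no p is given. CD300A rose by 3.34 ± 0.51 (edgeR adjusted p = 0.00618, with 2.72 and 4.35 without scramble replicates 1 and 2), and CD300LF by 2.25 ± 0.25 (edgeR adjusted p = 0.00186). In shKDM3B cells 7 of 9 were called higher and 1 lower, beside 24% and 42.2% of all genes, among them SIRPA, which binds CD47, at 1.99 ± 0.20 (edgeR adjusted p = 3.44e-05), CD300A at 1.74 ± 0.40 (edgeR adjusted p = 0.00526, with 1.17 and 2.67 without shKDM3B replicates 1 and 2) and FCGR2B, the inhibitory IgG receptor, at -1.73 ± 0.65 (edgeR adjusted p = 0.0496), the last at -0.90 and not called without shKDM3B+ATRA replicate 1, and at -4.32 without replicate 2. CLEC12A was the one receptor of this list whose ATRA response was called as different, by 1.87 ± 0.76 (edgeR adjusted p = 1.00), with a range of 1.36 to 2.57 over the libraries left out in turn, a call lost without scramble replicate 2, shKDM3B replicate 2 or either shKDM3B+ATRA library.

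The named genes of these lists were also compared without either scramble+ATRA library. Of the 11 called on ATRA in scramble cells, SIGLEC16, CD22, SOCS3 and LILRB2 had passed the count filter through the ATRA libraries alone, which fixed their direction. Without replicate 1 CD22 and LILRB2 did not pass the filter. Of the 7 called between the ATRA groups, SIGLEC8 had passed through the scramble+ATRA libraries alone, with its direction fixed as well. The log2 fold changes of these called genes moved by at most 0.38 and 0.30 in the 2 comparisons, leaving out CD22 and LILRB2 without replicate 1.

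Markers of cell types also differed between the groups, some with the receptors and some against them. In bulk libraries fewer cells of a type and less RNA per cell cannot be told apart. A list of 7 eosinophil, basophil and mast cell genes summed to 347 to 618 CPM in scramble, 173 to 312 in shKDM3B, 36.0 to 55.5 in scramble+ATRA and 6.15 to 19.1 CPM in shKDM3B+ATRA cells. In untreated cells the sum was nearly all EPX (means of 214 CPM in scramble and 95.3 in shKDM3B) and HDC (261 and 141). PRG2, the next highest there, was at 4.88 and 4.32 CPM. In shKDM3B against scramble cells 2 of the 5 tested, EPX and HDC, were called lower and none higher, beside 3.53% of all genes called lower and beside the lower SIGLEC6 and SIGLEC8. On ATRA 4 were called lower and 1, CLC, higher in each background, of 6 tested in scramble and 5 in shKDM3B cells, beside 25.9% and 42.2% of all genes called. In scramble cells SIGLEC6 was at -1.12 ± 0.66 on ATRA and SIGLEC8 at 0.13 ± 0.44, neither of them called. In shKDM3B cells the SIGLEC6 values with and without ATRA overlapped. Later granulocyte markers (5 genes) summed to 144 to 154 CPM in scramble, 85.0 to 101 in shKDM3B, 485 to 584 in scramble+ATRA and 294 to 325 CPM in shKDM3B+ATRA cells, the same order as the means of SIGLEC7 and SIGLEC10. On ATRA 3 of the 4 tested were called higher in each background, beside 15% and 24% of all genes, but MMP9 was called lower, at a mean of 51.4 CPM in scramble and 1.78 in scramble+ATRA, and of 22.0 CPM in shKDM3B and 1.43 in shKDM3B+ATRA cells. In each of the 2 knockdown comparisons 2 of the 4 later granulocyte markers tested were called lower, beside 3.53% of all genes called lower without ATRA and 4.37% with it. The 5 promyelocyte granule genes, led by MPO, summed to 4355 to 5497 CPM in scramble, 8350 to 9977 in shKDM3B, 614 to 724 in scramble+ATRA and 2211 to 3153 CPM in shKDM3B+ATRA cells, the reverse of the order of SIGLEC7 and SIGLEC10 in each comparison of 2 groups. The sum was mostly MPO, and CTSG, another granule protease, was at a mean of 3.17 CPM in scramble+ATRA and 1.86 CPM in shKDM3B+ATRA cells, a difference that was not called. MPO is abundant in promyelocytes, as labelled, but ELANE, PRTN3 and AZU1 of the same list reached no more than 0.354, 1.17 and 1.48 CPM in any library. Of this list 1 of 4 tested was called higher in shKDM3B than in scramble cells, and 1 of 2 tested with ATRA, beside 7.01% and 6.79% of all genes called in either direction. The 5 monocyte and macrophage markers summed to 5.03 to 5.62 CPM in scramble, 2.43 to 3.65 in shKDM3B, 5.49 to 10.4 in scramble+ATRA and 3.80 to 4.35 CPM in shKDM3B+ATRA cells, with CD163 at 0 in every library. CSF1R, the receptor of the macrophage growth factor, was at a mean of 4.82 CPM in scramble and 2.82 CPM in shKDM3B cells and was called lower there, beside the lower SIGLEC7, at -0.78 ± 0.33 (edgeR adjusted p = 0.467). T and NK cell markers summed to 35.1 to 46.6 CPM in scramble, 19.6 to 25.4 in shKDM3B, 33.7 to 49.7 in scramble+ATRA and 15.1 to 23.2 CPM in shKDM3B+ATRA cells, nearly all from NKG7. NKG7, a granule protein of natural killer cells, was called lower in both knockdown comparisons, at -0.89 ± 0.22 without ATRA (edgeR adjusted p = 0.183) and -1.12 ± 0.34 with it (edgeR adjusted p = 0.502), and was called on ATRA in neither background. The B cell markers summed to 3.59 to 5.15 CPM in the untreated and 13.7 to 24.0 CPM in the ATRA libraries. MS4A1, HBB and PF4 were at 0 throughout, and ITGA2B, a megakaryocyte integrin, was called lower in shKDM3B cells at -1.51 ± 0.36 (edgeR adjusted p = 0.175). The part of these markers in the receptor values was not tested.

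The genes with the most similar patterns over the 8 libraries were found by the root mean square difference in log2 CPM after centring each gene. For CD33 they were LINC00863, OS9 and FNBP1, with a difference of 0.06 to 0.08. For SIGLEC10 they were NKD1, VASH1 and SIGLEC17P, at 0.25 to 0.27, and for SIGLEC7 they were PITPNC1, DNAJC4 and MRVI1, at 0.33 to 0.35. SIGLEC6 had no close match, with RETN, H1FX and S100A6 at 1.12 to 1.20. The values for SIGLEC1, SIGLEC5 and SIGLEC9 rest on few counts, and their nearest genes, C19orf54, RPSAP19 and TMEM72, lay at 0.37, 0.62 and 0.37.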

How the data were processed

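RNA was sequenced from 8 libraries of NB4 cells, 2 in each of 4 groups. The deposited files hold raw counts per gene name, which the authors made by trimming reads, aligning them to hg38 with HISAT2 and counting with HTSeq (versions and strand setting not given in the sources used here). The methods call the annotation RefSeq, while the names follow Ensembl usage. The 5 HTSeq summary lines, 29.8% to 62.2% of all counts, were left out of library sizes. Groups and replicates came from the titles.

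The Siglec receptors and the gene lists were chosen with earlier results of these data known. Each comparison was fitted over all genes with edgeR 4.0.16 (filterByExpr, TMM, quasi-likelihood test) on its own groups, and the difference of the ATRA responses on all 8 libraries. A call needed P under 0.05 and a fold change of at least 1.5, the study's thresholds, which it used with DESeq2. A standard error is the absolute log2 fold change divided by the square root of F. Comparisons between untreated and ATRA-treated cells used shared names. Adjusted p-values are Benjamini-Hochberg over all genes of the fit. For a count of 0 the floor was 3 counts a library, and intervals and floors cover counting error only, since reads carried no molecular identifiers. DESeq2 1.42.0 and other alternatives are given in the closing section. The steps were tested on simulated counts.

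From the list of other Siglec genes each with at least 20 counts in all was named, and from each other list the 3 called genes with the largest absolute log2 fold change in a comparison. Genes of similar pattern had at least 20 counts in every library. Exon lengths, overlaps and promoters came from GENCODE release 44.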

Additional observations from a re-analysis of the deposited data

Results flagged for a closer look

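Counts that fell outside genes, which no comparison used, made up 50.02% of the uniquely aligned counts in the second scramble+ATRA library. The shKDM3B+ATRA libraries held 51.45% (replicate 1) and 51.05% (replicate 2). The most in an untreated library was 9.62%, and the first scramble+ATRA library held 9.36%. The 2 scramble+ATRA libraries thus differed widely, but in a group of 2 it cannot be said which library is the odd one. No gene of the family moved in opposite directions in all libraries of 2 backgrounds.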

How the results depend on the processing

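In the comparisons where SIGLEC6, SIGLEC7 or SIGLEC10 was called, its log2 fold change kept its direction under every alternative tried. CD33 was called in no main fit. The alternatives were DESeq2's size factors or test, library size alone, no count filter, and a filter of 10 counts in 2 libraries. A fit of all 8 libraries, a replicate block, and leaving out each library were the others. With calls on adjusted P, 0 receptors remained called for shKDM3B against scramble and 1 for scramble+ATRA against scramble, beside 0.0217% and 12.9% of all genes. Of the listed genes 0 were called for shKDM3B against scramble, beside the same 0.0217%. For shKDM3B+ATRA against scramble+ATRA 0 of all 14281 genes passed, and for the difference of ATRA responses 0 of all 13528, listed genes included. With no count filter 1 receptor was called between the ATRA groups and 4 on ATRA in shKDM3B cells, beside 4.72% and 33.1% of all genes. With the DESeq2 test 2 receptors were called for shKDM3B against scramble, 1 between the ATRA groups and 1 on ATRA in shKDM3B cells, beside 5.72%, 7.14% and 38.6% of all genes. For the difference of ATRA responses 1 listed gene was called with it, beside 3.7% of all genes. With all 8 libraries in one fit 2 receptors were called for shKDM3B against scramble and 1 between the ATRA groups, beside 5.01% and 10.6%. The call lost for shKDM3B against scramble was that of SIGLEC7 in both.

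Without single libraries, the receptors called ranged from 2 to 3 for shKDM3B against scramble, 0 to 3 between the ATRA groups, 0 to 3 on ATRA in scramble cells, 2 to 3 on ATRA in shKDM3B cells and 0 to 1 for the difference. The share of all genes called ranged from 6.49% to 11.6%, 0.889% to 36.4%, 11.1% to 38.4%, 37.3% to 46.1% and 2.04% to 17.4% in that order. Listed genes called ranged from 9 to 11, 0 to 17, 15 to 25, 22 to 26 and 1 to 5 in the same order. Those 0 receptors on ATRA in scramble cells came without scramble replicate 1, and 1 was called without scramble replicate 2. Between the ATRA groups 11 listed genes were called without scramble+ATRA replicate 1, 17 without replicate 2 and 0 without shKDM3B+ATRA replicate 1, beside 17%, 36.4% and 0.889% of all genes. For the difference of ATRA responses 5 listed genes were called without shKDM3B replicate 1 or scramble+ATRA replicate 2, beside 4.11% and 17.4%, and 1 without scramble replicate 1, shKDM3B replicate 2 or either shKDM3B+ATRA library, beside 2.04% to 3.49%.

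Same-numbered libraries were not stated to share a culture or batch. With the replicate block 3, 0, 3, 2 and 0 receptors and 13, 6, 20, 27 and 2 listed genes were called in that order, beside 8.96%, 3.68%, 23.2%, 42.7% and 3.98% of all genes. After subtracting group means, libraries that share a number correlated over genes by 0.391, 0.0127, -0.0567 and 0.159 in the first 4 comparisons. The values of SIGLEC1, SIGLEC5 and SIGLEC9 rest on at most 8 counts in a library, and the reason for these low counts was not tested.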
